A study of Homo sapiens with 24 samples.

Results

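Transcripts of 31 genes of fatty acid oxidation and fatty acid activation were examined in HepG2, a line of human hepatocellular carcinoma cells, out of 60683 genes in the deposited count table. The members were the rows whose symbol was on a fixed list of 2 transcriptional regulators, 5 long-chain acyl-CoA synthetases, 4 genes of the carnitine shuttle, and the enzymes and electron carriers of mitochondrial and peroxisomal beta-oxidation. Every member had a row, and 30 of the 31 had enough counts to be among the 16196 genes tested. ACADL, which encodes the long-chain acyl-CoA dehydrogenase, had 8 counts over all libraries and was not tested.

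In all cells the endogenous glucocorticoid receptor gene NR3C1 had been knocked out by CRISPR/Cas9, and a Ty1-tagged receptor was expressed from a doxycycline-inducible lentivirus. The receptor was wild type (WT), K154R, a lysine-to-arginine change that prevents acetylation there, or K154Q, a lysine-to-glutamine change that mimics acetylation. Cells of each genotype were given 0.3 to 1 µg/mL doxycycline for 24 h to match receptor protein, were washed out for 24 h in charcoal-stripped medium, and were then kept for 6 h with ethanol as vehicle or with the synthetic glucocorticoid dexamethasone at 1 µM. Per the labels, the 4 replicates in each of the 6 groups came from a pair of independent transductions in each of 2 experiments, and the question was how acetylation of that lysine affects the dexamethasone response of target genes. The endogenous knock-out, the lentiviral receptor and doxycycline were thus common to controls and treated cells.

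Fatty acids enter beta-oxidation after an acyl-CoA synthetase has joined them to coenzyme A. Long chains then cross into the mitochondrion as carnitine esters, made by CPT1, moved by the carrier SLC25A20 and turned back by CPT2, and are shortened in repeated rounds of dehydrogenation, hydration, a further dehydrogenation and thiolysis, with electrons passed on by the electron transfer flavoprotein. In liver, the pathway is under the nuclear receptor PPARA with its coactivator PPARGC1A, and glucocorticoids are known as hormones of the fasted state that favour fat use.

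Library totals ran from 23863672 to 42072021 counts, and 23420 to 25659 genes had a count. All 11 hepatocyte markers examined stood above 1 CPM in every library, CPM being counts scaled to a common library size by TMM. Of 6 leukocyte markers, the defining PTPRC and CD3E were at 0 in all libraries and LYZ, a lysozyme gene, stood at 483 to 1014 CPM. The 8 fibroblast markers summed to 17.1 to 38.0 CPM, nearly all from PDGFRB, and the 5 endothelial markers to 0.946 to 2.51 CPM. WT vehicle replicate 4 had the lowest share of counts from mitochondrially encoded mRNA, 5.16% against 7.41% to 8.02% in the other WT vehicle libraries. Other libraries numbered 4 held 5.84% and 6.07% in K154Q vehicle and dexamethasone, 7.25% and 6.67% in K154R, and 8.51% in WT dexamethasone. FKBP5, a classical receptor target, rose with dexamethasone by 0.98, 1.17 and 1.04 on the log2 scale in WT, K154R and K154Q (adjusted p at most 3.34e-06 by edgeR's quasi-likelihood test). NR3C1 itself lay between group means of 83.4 and 93.1 CPM, although gene counts cannot separate the introduced from the disrupted transcript. In bulk RNA, fewer cells that express a gene and less RNA per cell cannot be told apart.

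The levels of the members were compared first, as CPM per kb of the gene length deposited with the counts, averaged over the 24 libraries with the SD over them. For most members that length is close to all annotated exons merged, and the length of the expressed transcript was not measured. It was 0.790 times the merged GENCODE v29 exons for ECHS1, 1.31 times for ACSL6 and 1.44 times for DECR1. Orders and ratios between genes therefore depend on this length as well as on the spread between libraries. ECHS1, the enoyl-CoA hydratase of short chains, was the highest at 126 ± 15.3 CPM per kb, followed by ACSL4 at 92.9 ± 7.97 and by HADHA, the alpha subunit of the mitochondrial trifunctional protein, at 75.3 ± 5.25. The ranges of ECHS1 and ACSL4 over libraries overlapped, and so did those of ACSL4 and HADHA. Within the same library, however, ECHS1 was above ACSL4 in every library. ACSL4 was above HADHA in all libraries except replicate 4 of WT vehicle (85.4 against 89.7) and of K154R vehicle (80.3 against 84.5). A step without overlap separated HADHA from HADHB, its partner subunit, at 42.8 ± 3.82. Below it each of the next 20 genes in the order overlapped with its neighbour, from ACSL3 (40.0 ± 5.83) and ACADVL (38.6 ± 4.51), the very-long-chain acyl-CoA dehydrogenase, down to HADH (4.06 ± 0.351), the short-chain hydroxyacyl-CoA dehydrogenase, which lay above PPARGC1A without overlap.

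The lower end held the regulators and the muscle form of CPT1. PPARGC1A stood at 2.60 ± 0.420 and PPARA at 2.32 ± 0.315 CPM per kb, overlapping each other and ETFDH, the dehydrogenase that takes electrons from the flavoprotein (2.22 ± 0.125). CPT2, the inner-membrane carnitine palmitoyltransferase, followed at 0.945 ± 0.108 with no overlap on either side. The liver form CPT1A stood at 6.32 ± 1.11, the muscle form CPT1B at 0.0999 ± 0.0525, and ACSL6, a synthetase best known from brain, at 0.0582 ± 0.0324 CPM per kb. CPT1B and ACSL6 overlapped, and they rested on 3 to 27 and 8 to 61 counts per library. CPT1B shares 66.4% of its exon bases with the readthrough gene CHKB-CPT1B on the same strand in GENCODE v29, so that its counts depend on how shared reads were assigned.

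**Figure D1:**
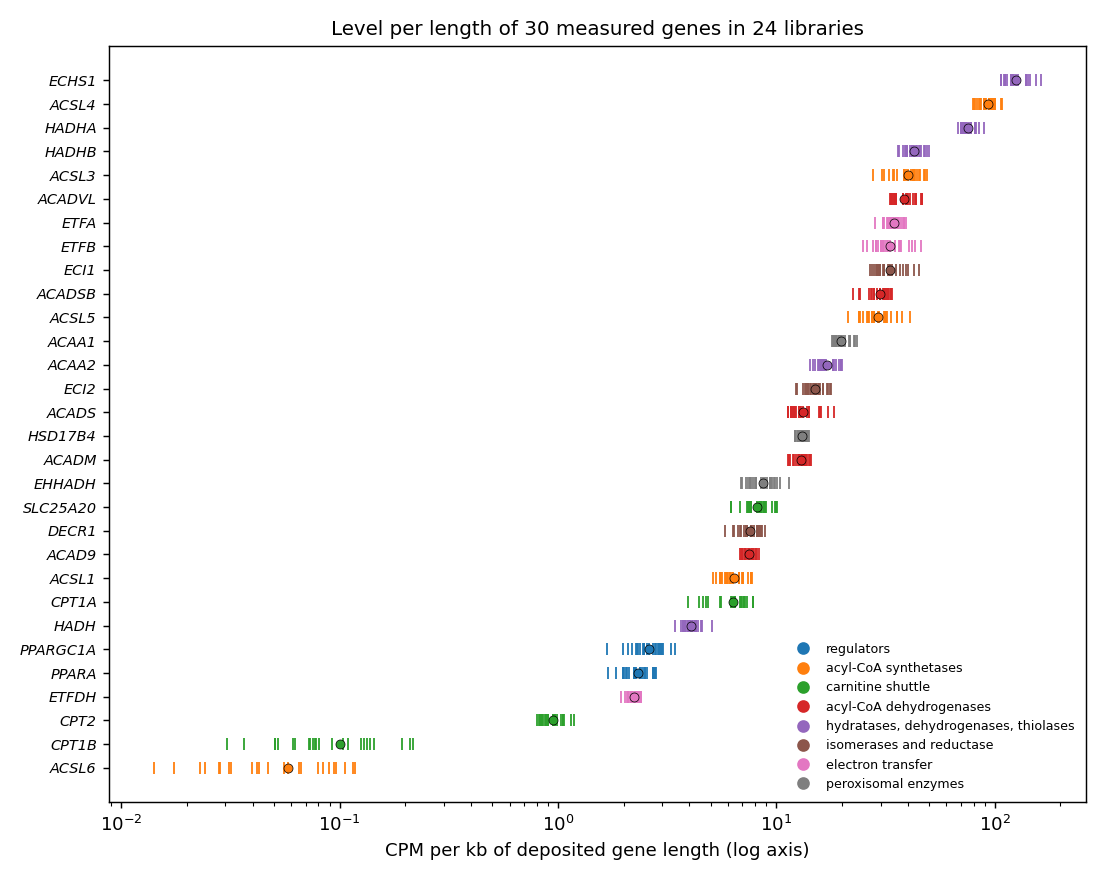
Level of the 30 tested members as CPM per kb of deposited gene length, on a log axis. Vertical ticks are the 24 libraries, filled circles their mean, and colours the role of the gene. ECHS1, ACSL4 and HADHA lie at the top, and CPT1B and ACSL6 lie far below the other genes.

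Levels per length of subunits of 1 complex were set against each other within each library. The ratio of HADHA to HADHB, whose genes lie head to head on chromosome 2, ran from 1.67 to 1.97 over the libraries with a median of 1.74. ETFA and ETFB, the 2 subunits of the electron transfer flavoprotein, had a ratio of 0.859 to 1.22 with a median of 1.10, and WT vehicle replicate 4 gave the lowest value. Per length CPT1A exceeded CPT2 by 4.45 to 9.59 times, a ratio that rests on the deposited 6571 and 10089 bases. Levels also varied unequally across the 24 libraries, with a coefficient of variation of 4.40% for HSD17B4, the peroxisomal multifunctional enzyme, 5.59% for ACAD9 and 5.64% for ETFDH, against 17.5% for CPT1A, 16.6% for ETFB and 16.6% for ACSL5. Among the scarce genes counting error adds to this, and ACSL6 and CPT1B reached 55.7% and 52.5%.

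The response to dexamethasone was then tested in each genotype and as the average of the 3 genotypes. Averaged over genotypes, 3 of the 30 members rose and 0 fell, and all 3 were acyl-CoA synthetases: ACSL6, ACSL5 and ACSL1. Over all genes 172 of 16196 passed the same test, which is 1.06%, of which 166 (1.02% of genes) were higher and 6 (0.037%) lower. The other 2 synthetases and the 25 members that act after or above activation did not pass. In no single genotype did a member pass the test over all genes (0 of 30 in each). Those tests called 0.161% of genes in WT, 0.309% in K154R and 0.13% in K154Q. An unadjusted p under 0.05 was seen for 2, 3 and 2 members, and for 522, 517 and 366 of the 16196 genes. DESeq2, which called 55, 77 and 47 genes, called ACSL6 in WT and K154R and 0 members in K154Q.

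ACSL6 (ENSG00000164398, chr5:131949973-132012243, minus strand, GRCh38) had the largest log2 response of any tested member. With replicates 1 to 4 in order, WT libraries held 0.528, 0.297, 0.726 and 0.479 CPM in vehicle and 1.42, 0.946, 1.63 and 1.96 CPM in dexamethasone. The K154R libraries held 0.990, 0.240, 0.480 and 0.710 CPM in vehicle and 2.0, 1.61, 1.11 and 1.79 CPM in dexamethasone, and the K154Q libraries 0.539, 0.389, 0.675 and 0.413 CPM in vehicle and 1.13, 0.802, 1.36 and 1.51 CPM in dexamethasone. In each genotype every dexamethasone library lay above every vehicle library, and dexamethasone was the higher in 12 of 12 pairs with the same replicate number. Of all tested genes, 1.41% were separated in this way in WT, 1.33% in K154R and 1.27% in K154Q. Counts of same-number pairs, here and below, are descriptive. In WT, not every same-number pair of libraries correlated above 0.1 (lowest correlation 0.050), so these libraries were not taken as pairs. How many of all genes reach such pair counts was not determined. Group means were 0.507 ± 0.176 and 1.49 ± 0.424 CPM (SD, n = 4) for WT vehicle and dexamethasone, 0.605 ± 0.321 and 1.63 ± 0.380 for K154R, and 0.504 ± 0.132 and 1.20 ± 0.309 for K154Q.

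On the log2 scale the average ACSL6 response was 1.40 (SE 0.19, 95% interval 1.00 to 1.79, edgeR adjusted p = 5.86e-05). This call held without each of the 24 libraries in turn. The single responses were 1.54 (adjusted p = 0.0593) in WT, 1.40 (adjusted p = 0.0619) in K154R and 1.25 (adjusted p = 0.301) in K154Q. For K154R and K154Q, where the replicate numbers paired the libraries, a fit with the number as a block called ACSL6 with adjusted p of 0.00159 and 0.0205; it called 3 of the 30 members in K154R and 1 in K154Q, where it called 1.23% and 0.722% of all genes. In WT the call was gained (adjusted p 0.0195 to 0.0496) when WT vehicle replicate 3, WT dexamethasone replicate 2, K154R vehicle replicate 1 or 2, or K154Q dexamethasone replicate 2 was left out. In K154R it was gained (0.0198 and 0.0350) without K154R vehicle replicate 1 or K154R dexamethasone replicate 3. Part of the ACSL6 exons, 15.4% of their bases, is shared with AC026398.1 on the same strand.

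ACSL5 (ENSG00000197142, chr10:112374018-112428380, plus strand) encodes a synthetase found on mitochondria and endoplasmic reticulum, and 5.29% of its exon bases lie opposite AL157786.1 on the other strand. It stood at 102, 112, 112 and 106 CPM in the 4 WT vehicle libraries and at 134, 151, 132 and 141 CPM in the WT dexamethasone libraries, without overlap. For K154R the values were 102, 116, 118 and 133 CPM in vehicle and 136, 159.7, 125 and 174 CPM in dexamethasone, and for K154Q 113, 110.1, 90.6 and 116 CPM in vehicle and 118, 124, 101 and 151 CPM in dexamethasone. In both variants the treatments overlapped. Dexamethasone was the higher in every same-number pair, 12 of 12 over the 3 genotypes. The average response was 0.31 (SE 0.06, 95% interval 0.17 to 0.44, edgeR adjusted p = 0.0103), with 0.37 in WT, 0.34 in K154R and 0.20 in K154Q, which was 0.09 without K154Q dexamethasone replicate 4. The replicate block called it in K154R (adjusted p = 0.0231, against 0.554 without the block) and not in K154Q (0.641). The average call held with any single library left out. It was lost without all libraries numbered 1, 2 or 4 (adjusted p 0.0839, 0.227 and 0.0581).

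ACSL1 (ENSG00000151726, chr4:184755595-184826818, minus strand) encodes the main long-chain synthetase of liver and fat. Its values were 42.4, 39.4, 35.5 and 37.0 CPM in WT vehicle and 48.1, 44.3, 38.5 and 39.6 CPM in WT dexamethasone. In K154R they were 37.7, 36.7, 33.2 and 34.6 CPM in vehicle and 42.3, 47.9, 37.2 and 48.6 CPM in dexamethasone, and in K154Q 42.6, 35.2, 32.4 and 34.6 CPM in vehicle and 44.1, 43.9, 38.4 and 46.6 CPM in dexamethasone. Vehicle and dexamethasone overlapped in all 3 genotypes. Dexamethasone was higher within 12 of 12 same-number pairs, which do not count as pairs in WT. The average response was 0.24 (SE 0.06, 95% interval 0.12 to 0.35, edgeR adjusted p = 0.0325), with 0.14 in WT, 0.31 in K154R and 0.26 in K154Q. The replicate block called it in K154R (adjusted p = 0.00985, against 0.501 without the block) and not in K154Q (0.0661). The WT value was 0.08 without WT dexamethasone replicate 1. The average call was the least stable of the 3. It was lost, with adjusted p of 0.0519 to 0.0741, without WT dexamethasone replicate 1 or 2, K154R vehicle replicate 3 or 4, K154R dexamethasone replicate 2 or 4, or K154Q dexamethasone replicate 1 or 4. It was lost as well without all libraries numbered 2 or 4 (0.412 and 0.568). Without WT vehicle replicate 4, the library lowest in mitochondrially encoded mRNA, the average responses of ACSL1, ACSL5 and ACSL6 were 0.23, 0.31 and 1.39 (adjusted p 0.0488, 0.0154 and 0.000163).

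The other 2 long-chain synthetases were the most abundant ones. ACSL3 (chr2:222860934-222944639, plus strand), known from lipid droplets and the endoplasmic reticulum, had 291, 284, 299.7 and 200.2 CPM in WT vehicle and 318, 327, 352 and 224 CPM in WT dexamethasone. K154R libraries held 310.0, 277, 308 and 237 CPM in vehicle and 330.0, 344, 305 and 257 CPM in dexamethasone, and K154Q libraries 309, 251, 314 and 220.3 CPM in vehicle and 306, 278, 348 and 248 CPM in dexamethasone. Replicate 4 was the lowest library of all 6 groups, and the treatments overlapped in each genotype. The average difference was 0.14 (95% interval -0.04 to 0.32, adjusted p = 0.843), and dexamethasone was higher in 10 of 12 same-number pairs.

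ACSL4 (chrX:109624244-109733403, minus strand), which prefers arachidonic acid, stood at 637, 646, 617 and 559 CPM in WT vehicle and at 655, 652, 631 and 522 CPM in WT dexamethasone. In K154R it stood at 705, 589.7, 567 and 525 CPM in vehicle and 659, 584, 599 and 533 CPM in dexamethasone, and in K154Q at 649.6, 587, 623 and 542 CPM in vehicle and 637, 614, 699 and 556 CPM in dexamethasone. The treatments overlapped in every genotype, and the average difference of 0.02 had a 95% interval of -0.10 to 0.14. Per length, ACSL4 made up 57.8% ± 1.28 (SD, n = 4) of the summed level of the 5 ACSL transcripts in WT vehicle and 53.4% ± 0.792 in WT dexamethasone. Its share was 55.6% ± 2.93 and 51.6% ± 2.99 in K154R and 57.1% ± 0.569 and 55.4% ± 2.24 in K154Q, and the treatments overlapped in both variants. The share of ACSL5 in vehicle and dexamethasone was 15.7% ± 1.27 and 18.9% ± 2.37 in WT, 17.1% ± 3.13 and 20.1% ± 3.51 in K154R, and 15.9% ± 2.44 and 17.1% ± 3.76 in K154Q, with overlap in each genotype, while ACSL6 stayed under 0.1% in every library. The synthetase with the largest log2 response was therefore the one with the least transcript. In CPM, the WT mean of ACSL6 went from 0.507 in vehicle to 1.49 in dexamethasone, and that of ACSL5 from 108 to 140.

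**Figure D2:**
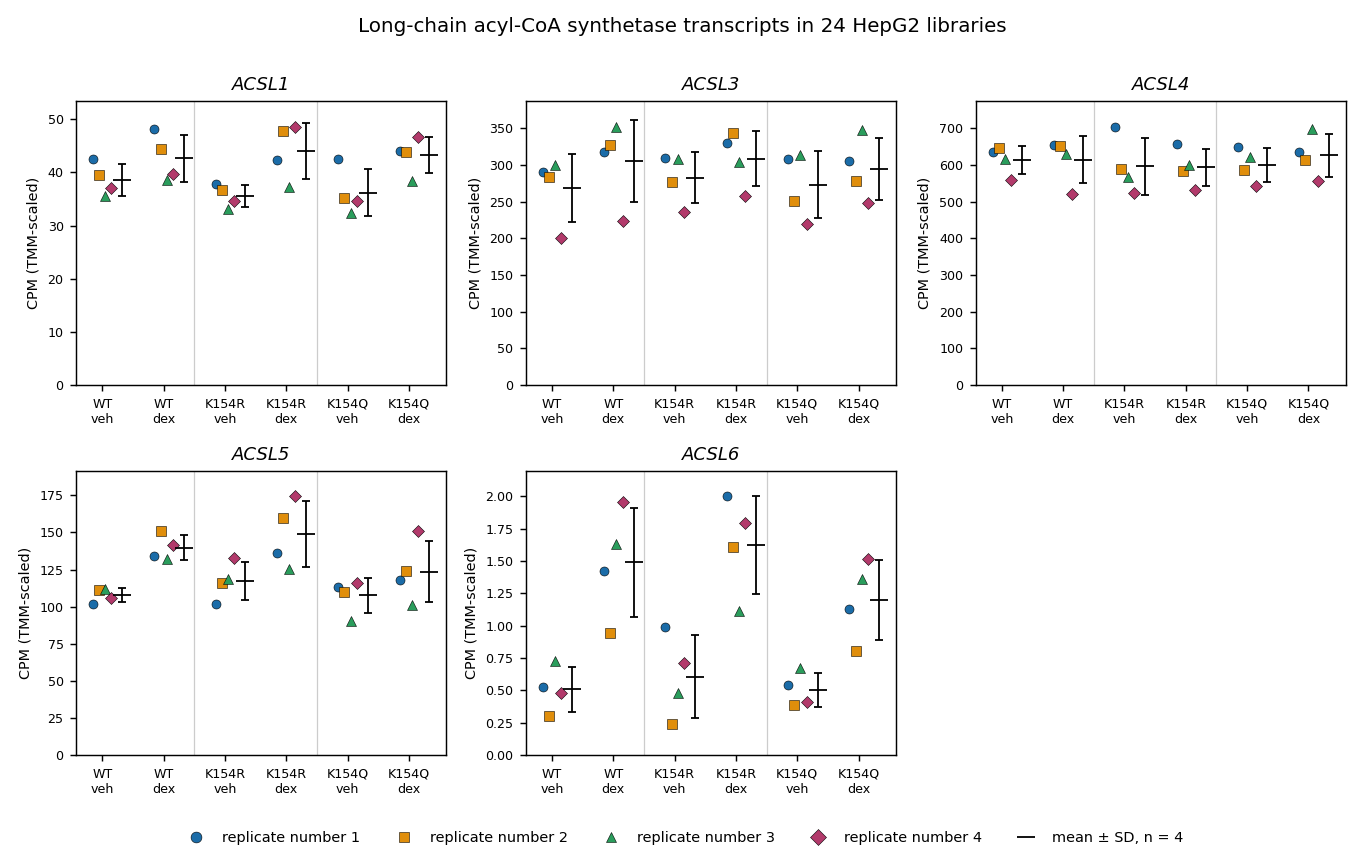
CPM of the 5 long-chain acyl-CoA synthetase genes in the 24 libraries, by genotype and treatment (veh, vehicle, and dex, dexamethasone). Symbols mark the replicate number, and bars show the mean ± SD of 4 libraries. ACSL6 dexamethasone libraries lie above all vehicle libraries of their genotype, and ACSL4 shows overlapping treatments.

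For the 3 synthetases that rose, the 250 bases before their annotated starts were searched for the glucocorticoid receptor half-site TGTTCT on both strands. RefSeq (GRCh38.p14) lists 5 such windows for ACSL1, 2 for ACSL5 and 7 for ACSL6, and 1 window of each gene held the half-site. ACSL3 and ACSL4 had 1 window each, without it, and so offered fewer windows in which to find one. The half-site occurs in 12.4% of all 35116 windows of that length, and in 4 of the 43 windows of the 26 members that have a window, in ACSL1, ACSL5, ACSL6 and HADH. The share of member windows with the half-site was thus not above that of all windows. The palindromic element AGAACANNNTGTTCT, which contains the half-site, was in 0 member windows and in 0.00285% of all windows. The direct repeat AGGTCANAGGTCA of the PPAR element was in 0 member windows and in 0.0171% of all windows. A match describes these letters only, and binding was not measured here.

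The exon-free stretch of each ACSL window with a half-site is shown as a description only. All 3 stretches belong to an internal start and lie inside the span of their gene. They run 5′ to 3′ on the gene's strand, with the half-site or its reverse complement in capitals. The ACSL1 stretch is chr4:184812260-184812501 on the minus strand, with half-sites 247 and 140 bases before the start. The ACSL5 stretch is chr10:112375955-112376197 on the plus strand, with 1 half-site 42 bases before the start. The ACSL6 stretch is chr5:131999694-131999943 on the minus strand, with 1 half-site 223 bases before the start.
ACSL1: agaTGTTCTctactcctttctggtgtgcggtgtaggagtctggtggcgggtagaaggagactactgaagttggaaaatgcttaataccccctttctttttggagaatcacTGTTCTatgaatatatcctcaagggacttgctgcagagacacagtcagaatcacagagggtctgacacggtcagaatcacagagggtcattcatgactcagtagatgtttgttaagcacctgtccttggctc
ACSL5: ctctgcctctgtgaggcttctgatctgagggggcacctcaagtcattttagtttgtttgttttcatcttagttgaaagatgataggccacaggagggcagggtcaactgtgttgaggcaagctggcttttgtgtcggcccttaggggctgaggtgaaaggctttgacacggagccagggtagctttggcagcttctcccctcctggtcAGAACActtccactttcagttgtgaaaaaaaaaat
ACSL6: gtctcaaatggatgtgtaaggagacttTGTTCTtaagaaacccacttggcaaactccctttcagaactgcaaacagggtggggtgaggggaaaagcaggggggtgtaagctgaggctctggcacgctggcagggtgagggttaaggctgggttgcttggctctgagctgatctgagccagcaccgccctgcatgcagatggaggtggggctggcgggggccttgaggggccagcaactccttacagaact

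Next the genes of the carnitine shuttle were compared, the step at which entry of long chains into mitochondria is controlled. CPT1A (ENSG00000110090, chr11:68754620-68844410, minus strand) was at 41.1, 47.1, 45.2 and 45.9 CPM in WT vehicle and 46.6, 46.6, 46.5 and 51.4 CPM in WT dexamethasone. K154R libraries had 40.9, 42.5, 29.2 and 32.1 CPM in vehicle and 46.7, 51.6, 30.2 and 44.7 CPM in dexamethasone, and K154Q libraries 36.2, 42.2, 25.8 and 42.3 CPM in vehicle and 36.6, 45.2, 31.2 and 48.1 CPM in dexamethasone. Dexamethasone was the higher in 11 of 12 same-number pairs, yet the treatments overlapped in each genotype. The average difference was 0.16 (SE 0.09, 95% interval -0.03 to 0.35, adjusted p = 0.811) and did not pass the test.

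CPT1B (chr22:50568861-50578465, minus strand) was scarce, at 0.330, 0.208, 0.531 and 0.310 CPM in WT vehicle and 0.55, 0.214, 0.892 and 0.257 CPM in WT dexamethasone. The K154R values were 0.377, 0.150, 0.864 and 0.125 CPM in vehicle and 0.322, 0.301, 0.591 and 0.251 CPM in dexamethasone, and the K154Q values 0.449, 0.568, 0.794 and 0.207 CPM in vehicle and 0.317, 0.425, 0.514 and 0.296 CPM in dexamethasone. Replicate 3 was the highest library in each of the 6 groups. The fitted differences of 0.43 in WT, -0.08 in K154R and -0.35 in K154Q had 95% intervals of -0.62 to 1.48, -1.16 to 0.99 and -1.37 to 0.68, too wide to set a direction. CPT2 and SLC25A20, the carrier, had average differences of 0.03 (95% interval -0.12 to 0.17) and -0.05 (-0.22 to 0.11).

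The regulators PPARA and PPARGC1A did not pass the test either. PPARA (chr22:46150521-46243756, plus strand), the fatty acid receptor, had 32.8, 29.4, 33.1 and 31.4 CPM in WT vehicle and 36.5, 27.2, 27.4 and 32.0 CPM in WT dexamethasone. K154R held 37.0, 22.4, 26.1 and 29.3 CPM in vehicle and 33.2, 26.2, 26.5 and 30.2 CPM in dexamethasone, and K154Q 33.7, 24.3, 36.9 and 28.0 CPM in vehicle and 36.0, 29.8, 35.9 and 31.5 CPM in dexamethasone. The treatments overlapped throughout, and the average difference was 0.03 (95% interval -0.13 to 0.19). PPARGC1A (chr4:23755041-23904089, minus strand), a coactivator induced by fasting in liver, had 23.8, 22.8, 32.1 and 30.7 CPM in WT vehicle and 26.9, 25.2, 32.9 and 31.9 CPM in WT dexamethasone. In K154R the values were 26.9, 18.3, 31.4 and 29.5 CPM in vehicle and 26.6, 25.0, 30.2 and 32.7 CPM in dexamethasone, and in K154Q 27.8, 21.5, 36.0 and 25.9 CPM in vehicle and 28.4, 24.7, 37.2 and 31.2 CPM in dexamethasone. As for PPARA, replicate 2 was the lowest of its group in all 6 groups, and the average difference was 0.11 (95% interval -0.08 to 0.31), higher with dexamethasone in 10 of 12 pairs.

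**Figure D3:**
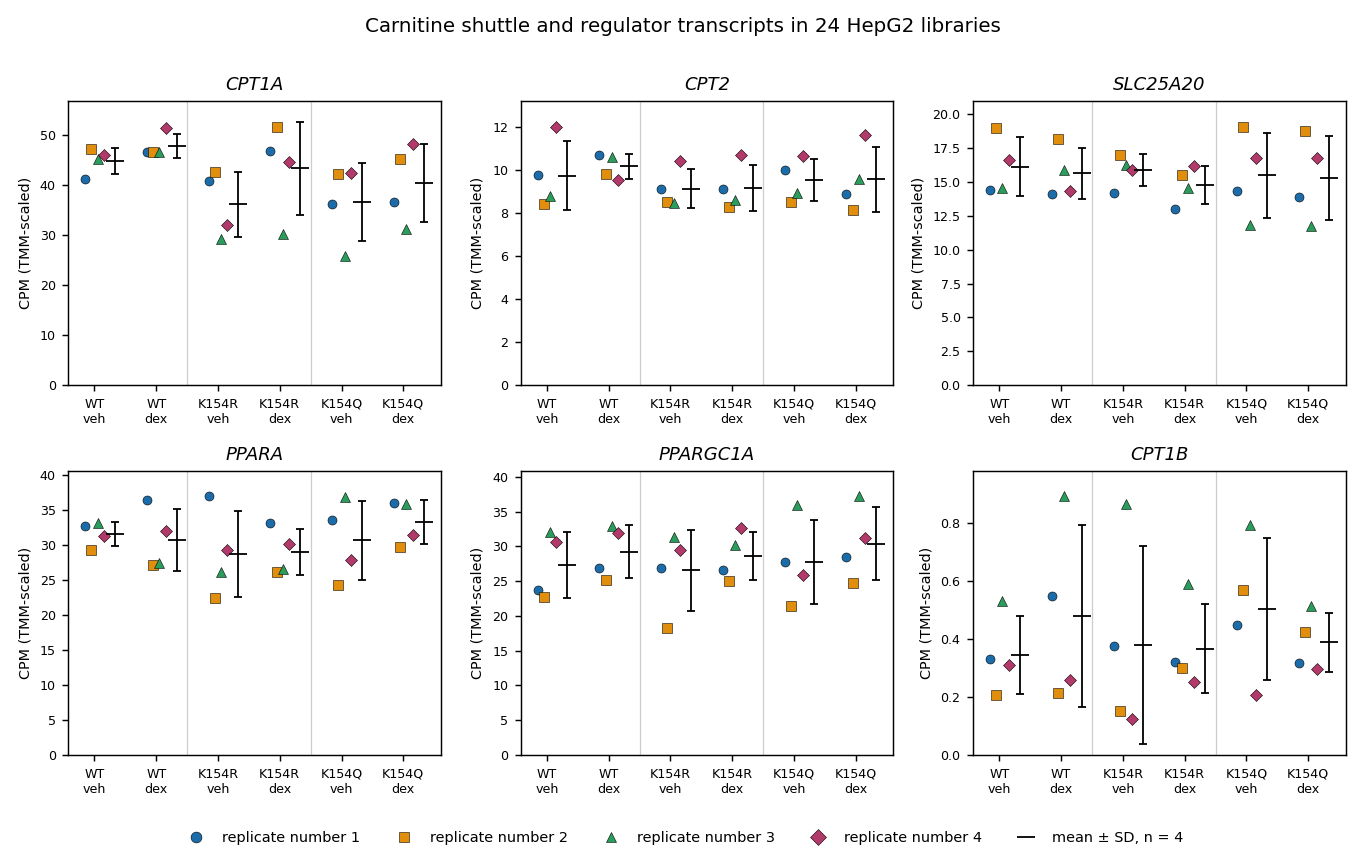
CPM of the carnitine shuttle genes CPT1A, CPT2, SLC25A20 and CPT1B and of the regulators PPARA and PPARGC1A in the 24 libraries, by genotype and treatment. Symbols mark the replicate number, and bars show the mean ± SD of 4 libraries. Within each genotype, vehicle and dexamethasone libraries overlap in each panel, and replicate 3 is the lowest CPT1A library in both variants.

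None of the enzymes and carriers after activation passed the test in the average response (0 of 23 by edgeR and 0 by DESeq2). Without the replicate block, 0 of them had an unadjusted edgeR p under 0.05. Of all 16196 genes, 1136 had an unadjusted p under 0.05 there. The average log2 differences of the 23 lay between -0.09 and 0.16 with a median of -0.03, beside -0.01 over all tested genes, and 17 of them were below 0. The 5 tested acyl-CoA dehydrogenases, which take the first 2 hydrogens, ran from -0.09 for ACADM to 0.03 for ACADSB. The hydratases, hydroxyacyl dehydrogenases and thiolases ran from -0.08 for HADH to 0.05 for the thiolase ACAA2. The isomerases ECI1 and ECI2 and the reductase DECR1, needed for unsaturated chains, stood at -0.02, -0.05 and -0.01, and the peroxisomal ACAA1, EHHADH and HSD17B4 at -0.02, 0.08 and -0.02. Of the exon bases of ECI2 and ACAA1, 27.1% and 19.7% overlap C6orf201 and DLEC1 on the opposite strand. The widest 95% interval among these enzymes, leaving out CPT1B, was that of ETFB, -0.29 to 0.11, so a change of 0.29 or more on the log2 scale lay outside the interval of each of them downward.

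The 3 members with the lowest average differences were ETFB, ACADM and HADH. ETFB (chr19:51345169-51366418, minus strand), the beta subunit of the electron transfer flavoprotein, was at 197, 201, 187 and 298 CPM in WT vehicle and 187, 210.2, 199.5 and 227 CPM in WT dexamethasone. K154R libraries had 168, 238, 199 and 280.0 CPM in vehicle and 162, 191, 239 and 263 CPM in dexamethasone, and K154Q libraries 196, 208, 216 and 272 CPM in vehicle and 179, 196, 204 and 243 CPM in dexamethasone. Its average difference was -0.09 (95% interval -0.29 to 0.11), and -0.02 without WT vehicle replicate 4, the highest of its group; without K154R vehicle replicate 4, K154R dexamethasone replicate 1 or K154Q vehicle replicate 4 it was -0.04, -0.05 and -0.05. Replicate 4 was in fact the highest library in all 6 groups.

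ACADM (chr1:75724347-75787575, plus strand), the medium-chain acyl-CoA dehydrogenase, had 62.9, 68.3, 57.8 and 64.8 CPM in WT vehicle and 59.8, 69.0, 54.4 and 60.5 CPM in WT dexamethasone. In K154R it had 61.8, 63.8, 64.8 and 65.8 CPM in vehicle and 57.1, 54.8, 62.4 and 63.7 CPM in dexamethasone, and in K154Q 64.5, 60.5, 63.3 and 67.9 CPM in vehicle and 58.6, 60.7, 55.4 and 65.4 CPM in dexamethasone. Dexamethasone was the lower in 10 of 12 pairs, with an average of -0.09 (95% interval -0.18 to 0.00, adjusted p = 0.737). HADH (chr4:107989714-108035175, plus strand) had 51.5, 47.8, 45.8 and 61.2 CPM in WT vehicle and 51.5, 46.2, 41.7 and 48.4 CPM in WT dexamethasone, 46.8, 49.8, 47.6 and 55.1 CPM in vehicle and 46.2, 44.3, 48.6 and 51.5 CPM in dexamethasone in K154R, and 51.9, 45.1, 48.0 and 54.7 CPM in vehicle and 50.1, 45.8, 45.1 and 52.8 CPM in dexamethasone in K154Q. It was also lower in 10 of 12 pairs, with an average of -0.08 (95% interval -0.19 to 0.03), and -0.05 without WT vehicle replicate 4. For both genes the treatments overlapped in every genotype, and neither difference exceeded the spread between replicates.

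**Figure D4:**
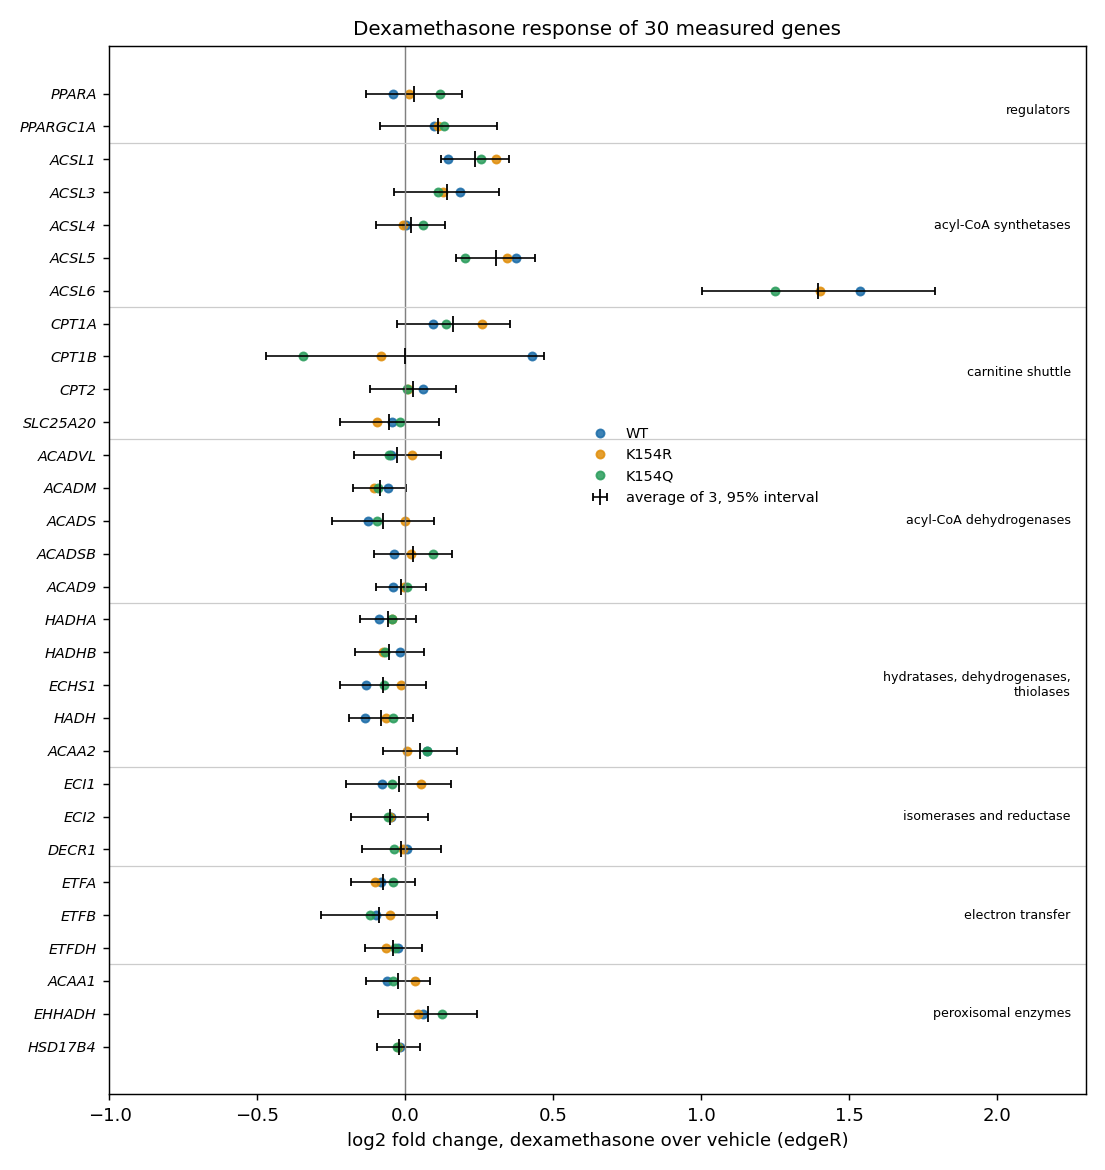
Fitted log2 fold change of dexamethasone over vehicle for the 30 tested members, grouped by role. Coloured points are the 3 genotypes, and black bars the average over genotypes with its 95% interval. The intervals of ACSL1, ACSL5 and ACSL6 lie above 0, and those of the other 27 genes include 0.

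The 3 response differences between genotypes were tested directly, since a call in 1 genotype is no test of a difference. For K154R against WT, K154Q against WT and K154Q against K154R, edgeR called 0 members and 0 genes in all (0% of tested genes), with 115, 145 and 99 genes, and 0 members, at an unadjusted p under 0.05. DESeq2 also called 0. The ACSL6 response differed from WT by -0.14 in K154R (95% interval -1.09 to 0.82) and by -0.29 in K154Q (-1.28 to 0.70). For ACSL5 the differences were -0.03 (-0.36 to 0.30) and -0.17 (-0.50 to 0.15), and for ACSL1 0.16 (-0.12 to 0.45) and 0.11 (-0.17 to 0.40). The K154Q response less the K154R response was -0.05 for ACSL1, -0.14 for ACSL5 and -0.15 for ACSL6. Single libraries moved these differences: with each of the 24 left out in turn, ACSL6 in K154Q less WT ran from -0.54 to -0.11, ACSL5 from -0.30 to -0.10 and ACSL1 from 0.05 to 0.20. The 2 comparisons with WT share the WT libraries.

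Levels in the same treatment were compared with WT next. In vehicle and in dexamethasone, edgeR called 0 members and 0 genes for either variant (0% of tested genes). At an unadjusted p under 0.05 there were 221 and 165 genes in vehicle and 253 and 243 in dexamethasone, and 0 members in each, and DESeq2 called 0 genes except 1 for K154Q in dexamethasone, not a member. CPT1A gave the smallest p among the members in vehicle, with 44.8 ± 2.58 CPM in WT, 36.2 ± 6.51 in K154R and 36.6 ± 7.78 in K154Q (SD, n = 4). The log2 differences were -0.31 (95% interval -0.64 to 0.02) and -0.29 (-0.62 to 0.04) in vehicle, and -0.14 (-0.47 to 0.19) and -0.25 (-0.57 to 0.08) in dexamethasone. In vehicle CPT1A was lower than WT in 4 of 4 same-number pairs for each variant. With the replicate block, which paired these libraries, the vehicle differences were -0.32 and -0.31 with unadjusted p of 0.00642 and 0.00729, and still did not pass over all genes (edgeR adjusted p = 0.768 and 1.0). ACADSB was the 1 other member under an unadjusted p of 0.05 there, in K154R (-0.15). Of all 16196 genes, 893 in K154R and 578 in K154Q were under 0.05 in that fit. Without K154Q vehicle replicate 3 the K154Q vehicle difference of CPT1A was -0.16. In dexamethasone, its K154R difference was -0.0025 without K154R replicate 3 and -0.24 without K154R replicate 2, and its K154Q difference -0.16 without K154Q replicate 3. The WT, K154R and K154Q libraries numbered 3 held 45.2, 29.2 and 25.8 CPM in vehicle, where the gap was widest, and those numbered 1 held 41.1, 40.9 and 36.2 CPM. For ACSL6 in dexamethasone the K154Q level differed from WT by -0.32 (-0.94 to 0.30), and CPT1B in vehicle by 0.52 (-0.51 to 1.56).

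The replicate number was tested as well, with group in the model. A term for the number passed the test for 27 of the 30 members, where 10276 of all 16196 genes, 63.4%, passed it as well, so that passing was common among all genes. ACAD9, ETFDH and ACADM did not pass. The labels do not say which number belongs to which experiment or transduction. Mitochondrially encoded mRNA took 7.62% to 8.49% of counts in libraries numbered 1 and 5.16% to 8.51% in those numbered 4; its part in these differences was not tested.

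ACADVL (chr17:7217125-7225273, plus strand) had the smallest p for the number. It stood at 182, 161, 209.9 and 209 CPM in WT vehicle and 171, 161, 222 and 184 CPM in WT dexamethasone, at 171, 165, 203 and 193 CPM in vehicle and 168, 161, 223 and 192 CPM in dexamethasone in K154R, and at 170.5, 169, 223 and 197 CPM in vehicle and 166, 163, 211 and 190.2 CPM in dexamethasone in K154Q. Numbers 3 and 4 lay above numbers 1 and 2 in every group, with means of 215 ± 8.45 and 194 ± 8.34 CPM against 172 ± 5.66 and 163 ± 3.30 (SD, n = 6; adjusted p = 2.43e-08 by edgeR). EHHADH (chr3:185190624-185281990, minus strand), the peroxisomal bifunctional enzyme, had 44.4, 46.7, 33.9 and 36.7 CPM in WT vehicle and 48.5, 53.0, 32.2 and 34.6 CPM in WT dexamethasone, 44.1, 40.3, 35.4 and 37.4 CPM in vehicle and 45.6, 43.7, 35.1 and 37.7 CPM in dexamethasone in K154R, and 42.2, 41.4, 32.2 and 35.4 CPM in vehicle and 43.5, 45.8, 36.0 and 39.4 CPM in dexamethasone in K154Q. It went the other way, with numbers 3 and 4 below numbers 1 and 2 in every group (adjusted p = 4.68e-07 by edgeR).

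Number 4 differed most for several genes. ETFB had a mean of 264 ± 25.6 CPM in number 4 (SD, n = 6) against 182 ± 14.4, 207 ± 16.7 and 207 ± 18.1 CPM in numbers 1, 2 and 3, and the isomerase ECI1 127 ± 12.8 CPM against 90.5 ± 2.95, 103 ± 7.09 and 103 ± 8.06. ACSL3 was lower in number 4, with 231 ± 20.6 CPM against 311 ± 13, 293 ± 34.8 and 321 ± 23.1, and so was ACSL4, with 539 ± 15.6 CPM against 657 ± 25.2, 612 ± 30.5 and 623 ± 43.8. Leaving out the scarce CPT1B and ACSL6, the largest log2 spans between numbers were 0.54 for PPARGC1A, 0.54 for ETFB and 0.49 for ECI1. A span is the highest less the lowest of the 4 numbers, so it is never below 0 and is not a measure like a dexamethasone difference. ACSL1 and ACSL5 themselves spanned 0.26 and 0.27, with average dexamethasone differences of 0.24 and 0.31. ETFDH, with 10.3 ± 0.254, 9.46 ± 0.232, 9.84 ± 0.728 and 10.3 ± 0.404 CPM, spanned 0.13.

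**Figure D5:**
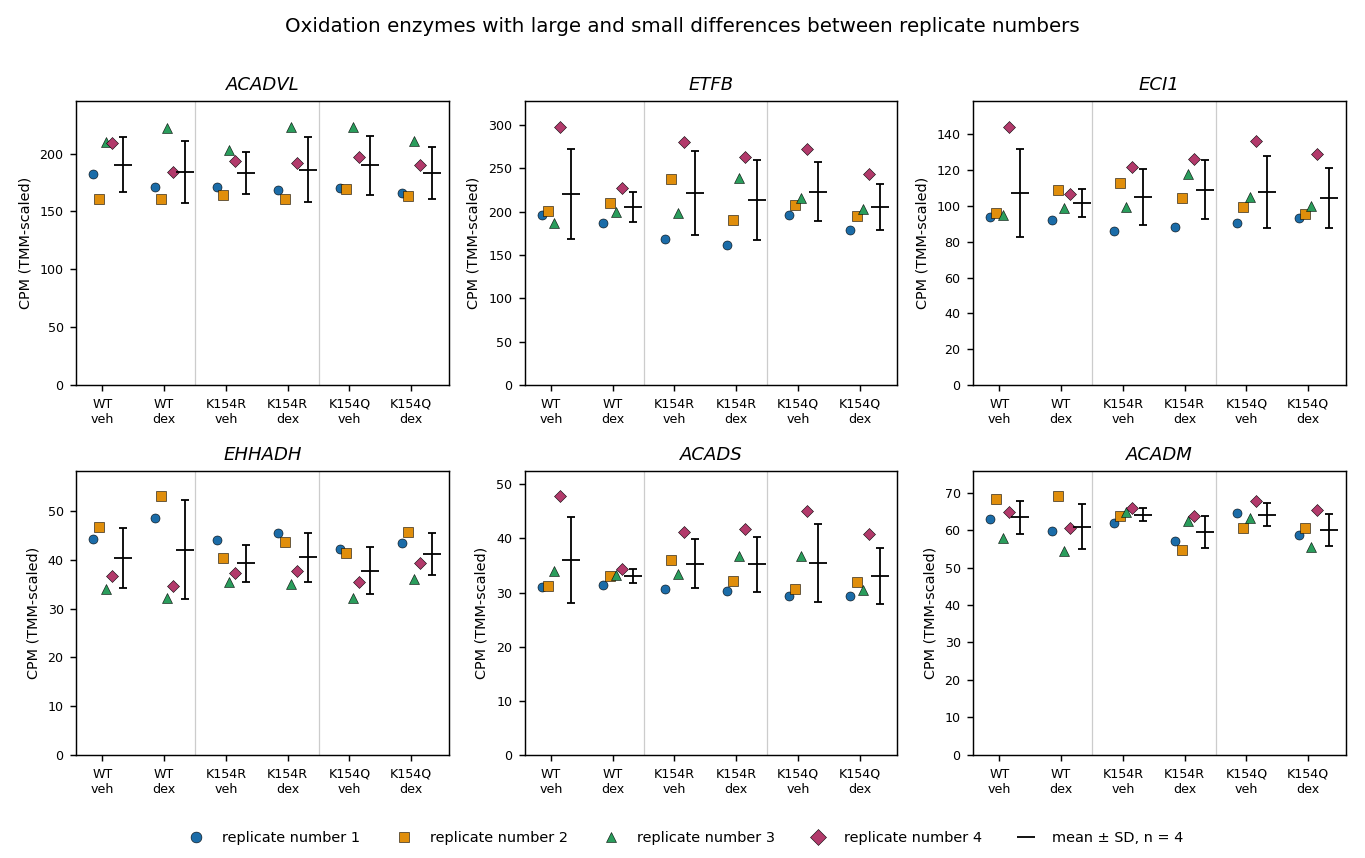
CPM of 6 oxidation enzymes and carriers in the 24 libraries, by genotype and treatment. Symbols mark the replicate number, and bars show the mean ± SD of 4 libraries. Numbers 3 and 4 are the higher ones for ACADVL and the lower ones for EHHADH in each group, number 4 is the highest for ETFB, and ACADM shows no such order.

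Neighbouring steps of fatty acid metabolism were read from 8 companion lists in the average response. The lists were chosen with earlier results of these data known, so their counts of called genes are descriptive. Over all genes the test called 1.06%, with 1.02% higher and 0.037% lower. In ketogenesis, 1 of 7 tested genes passed, upward. SLC16A6, a monocarboxylate transporter, went from a mean of 42.5 CPM over the vehicle libraries to 60.2 CPM over the dexamethasone libraries (log2 0.50, SE 0.12, edgeR adjusted p = 0.0435). In K154R and K154Q, where the numbers paired the libraries, the replicate block gave an opposite call for BDH1, the enzyme that makes 3-hydroxybutyrate: -0.35 (adjusted p = 0.00432) and -0.33 (0.0124), against adjusted p of 1.0 in both without the block. It also called SLC16A6 higher in K154R (0.57, adjusted p = 0.00351). Of 19 tested PPAR genes, coactivators and textbook PPARA targets, 3 rose and 0 fell. PDK4, the kinase that shuts off pyruvate dehydrogenase and so spares glucose, had 4 counts over the 12 vehicle libraries and 176 over the 12 dexamethasone libraries (adjusted p = 3.82e-06). ANGPTL4, a secreted inhibitor of lipoprotein lipase, rose by 1.08 (SE 0.16, adjusted p = 0.000211) and TXNIP, a regulator of glucose uptake, by 0.20 (SE 0.04, adjusted p = 0.00725). With the replicate block ANGPTL4 was called in K154R and K154Q as well (adjusted p = 0.00387 and 0.0261, against 0.204 and 0.878 without it). PDK4 and ANGPTL4 are also known as direct targets of the glucocorticoid receptor.

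The other 6 lists held 0 called genes by edgeR and 0 by DESeq2, with 1 gene each at an unadjusted p under 0.05 in the first 3 and 0 in the last 3 of those that follow. Over all genes, 1136 of 16196 were under that unadjusted p. Among 14 tested genes of peroxisomal oxidation PEX5, the import receptor, had the smallest p (-0.10, adjusted p = 0.625). Among 12 of fatty acid uptake and binding it was the scavenger receptor CD36 (0.26, 0.700), and among 12 of malonyl-CoA and AMPK control the kinase subunit PRKAG2 (0.16, 0.625). Among 7 thioesterases it was ACOT11 (-0.12, 0.871), among 12 other acyl-CoA synthetases ACSM3 (-0.17, 0.730), and among 9 branched-chain genes AUH (-0.09, 0.842). In K154R and K154Q, where the numbers paired the libraries, the replicate block called 0 genes of these 6 lists.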

How the data were processed

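Poly(A) RNA of 24 HepG2 cultures was sequenced. The authors deposited raw counts per gene with a gene length in bases. Per the submitters' processing notes, bcl2fastq 2.20.0.422, cutadapt 3.7, STAR 2.7.6a and featureCounts 2.0.3 were used with GRCh38.p13. Strand setting, annotation release and multi-mapping treatment were not given in the sources used here, so overlapping and similar genes are uncertain.

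Samples were grouped by their titles. In edgeR 4.0.16 (R 4.3.3), genes were kept by filterByExpr over the 6 groups, scaled by TMM and fitted with 1 mean per group on all 24 libraries by quasi-likelihood, with calls at an adjusted p under 0.05 (Benjamini-Hochberg over 16196 genes). SE is the log2 fold change over the root of F, and 95% intervals use it. Members, roles, companion lists and the rule for naming genes were chosen with earlier results of these data known. The rule named members called in a contrast, those with the 3 largest and smallest average responses, those farthest from WT in a level, the 3 with the smallest p for the replicate number, the smallest p of each response difference, and always PPARA, PPARGC1A, CPT1A and the ACSL genes. The script was tested on simulated data.

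Pairing by replicate number was checked by correlating the libraries' deviations from their group means. Every same-number pair exceeded 0.1 for the K154R response (lowest 0.264), the K154Q response (0.381), their difference (0.183) and the vehicle comparisons of K154R (0.310) and K154Q (0.306) with WT, and not for the others. Replicates of a group differed by far more than sampling noise (chi-square per degree of freedom at least 12.1), which limits precision for well-expressed genes, whereas counting error adds for scarce ones such as ACSL6 and CPT1B. Alternatives tried were DESeq2 1.42.0, RLE factors, a fit with no filter, a replicate block, single-genotype fits and left-out libraries. Gene positions and exon overlaps are from GENCODE v29 and promoter windows from RefSeq, both on GRCh38.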

Additional observations from a re-analysis of the deposited data

Results flagged for a closer look

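In 8 of the 180 groups of 4 libraries, 1 library lay far from the other 3 by Dixon's test at its 95% level, where chance flags about 1 in 20 groups. In WT vehicle, replicate 4 was low for ACSL3 (200.2 CPM, others 284 to 299.7) and high for ECI1 (144 CPM, others 93.7 to 96.1) and ETFB (298 CPM, others 187 to 201). In WT dexamethasone, replicate 4 was high for CPT1A (51.4 CPM, others 46.5 to 46.6) and replicate 2 for HADHB (206 CPM, others 178 to 179.9). In K154Q vehicle, replicate 2 was low for ACADSB (150.4 CPM, others 195 to 199.9) and replicate 4 high for HADHA (351 CPM, others 316 to 319.9). In K154R vehicle, replicate 1 was low for ETFA (155 CPM, others 188 to 193).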

How the results depend on the processing

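The average calls of ACSL1, ACSL5 and ACSL6 held with RLE factors, without the filter on low counts, in DESeq2 and with the replicate block. Members called in WT, 0 in the analysis described, numbered 1 without the filter, 1 in DESeq2 and 2 with the replicate block (ACSL5, adjusted p = 0.0150, and ACSL6, 0.00147). In K154R they numbered 1, 1 and 3, and in K154Q 1, 0 and 1. In the average response the block called 4, adding ACSL3 (adjusted p = 0.0331). Over all tested genes the block called 128 (0.79%) in WT, 200 in K154R, 117 in K154Q and 685 (4.23%) on average, DESeq2 55, 77, 47 and 256, and the fit without a filter 78, 109, 72 and 325, against 26, 50, 21 and 172. In the level comparisons the fit without a filter called 8 to 18 genes, the block 2 to 5, and neither a member. In the average response with the block, PPARGC1A, CPT1A, ACADM, HADH and ETFA did not pass. Their unadjusted p by edgeR were 0.0128, 0.0175, 0.0247, 0.0294 and 0.0499997. In that fit, 2739 of 16196 genes were under an unadjusted p of 0.05. Beyond the synthetases, the block changed no member's call. Among companion genes it called in the average response BDH1 (adjusted p = 0.000212), ACOX2 (0.0278), FABP1 (0.00810) and ACSM3 (0.0241) lower and CD36 (0.00301) higher, and in WT SLC16A6 (0.0286) higher, and none of these 6 calls was made without it. Pairing was not assumed for the WT and average responses, although 23 of 24 libraries lay closest to their own number, a hint from the data. The fit on the 8 libraries of 1 genotype called 16, 24 and 12 genes and 0 members, and CPT1B was not tested there in K154R. Leaving out single libraries gave 0 to 1 called members in WT, 0 to 1 in K154R, 0 in K154Q, 2 to 3 on average and 26 to 28 for the replicate number.

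Leaving out all 6 libraries of a number was chosen after seeing the data. The average response then called 2, 1, 3 and 1 members without numbers 1, 2, 3 and 4, ACSL6 among them each time, and the number effect 24, 26, 24 and 18. Genes called were 16, 10, 13 and 17 in WT, 30, 17, 36 and 29 in K154R, 20, 12, 11 and 11 in K154Q and 125, 124, 181 and 107 on average. Differences near 0 turned sign: the ACSL6 response difference of K154R from WT was 0.12 and 0.060 without numbers 1 and 4, that of K154Q from K154R 0.17 without number 2, the CPT1B response in K154R 0.31, the ACSL4 average -0.0077 and the ACSL5 difference of K154R from WT 0.0048 without number 3. Over single libraries left out, these ranged from -0.030 to 0.74 for CPT1B in WT, -0.40 to 0.64 for CPT1B in K154R, -0.0032 to 0.087 for the PPARA average, -0.12 to 0.044 for ACSL5 and -0.41 to 0.25 for ACSL6 in K154R less WT, -0.12 to 0.034 for ACSL1 and -0.56 to 0.12 for ACSL6 in K154Q less K154R, and -0.68 to 0.11 for the CPT1B dexamethasone level of K154R less WT. The causes were not tested. Low counts limit ACSL6 and CPT1B.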
